A study of Drosophila melanogaster with 9 samples.

Results

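The small RNA pathway genes described here are 32 genes whose proteins make or use piRNAs, siRNAs and miRNAs, 24 of them in the piRNA pathway. The list names genes by pathway and was chosen with earlier results of these data known. The rule that finds the genes by symbol uses no measured value. Each gene is represented by its brightest probe set among those that carry its symbol alone. A probe set was found for 29 of the 32 genes, out of 11982 named genes on the array: all 24 piRNA genes, the siRNA genes *Dcr-2* and *r2d2*, and the miRNA genes *loqs*, *pasha* and *drosha*. *AGO1*, *AGO2* and *Dcr-1* have no probe set of their own symbol in the annotation used and were not analysed here.

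RNA of whole testes was hybridized to 9 Affymetrix Drosophila Genome 2.0 arrays, 3 for each of 3 genotypes of *Drosophila melanogaster*. The knockdown males (*bam*≫*tbrd-2* RNAi) had 2 copies of the *bam*-Gal4 driver, on the X chromosome and chromosome 3, together with 1 copy of a *tbrd-2* hairpin on chromosome 3. The *bam*-Gal4 control had the 2 driver copies alone, and the undriven control had 1 copy of the hairpin alone. In the genotype labels both controls, but not the knockdown males, also have a copy of chromosome 3 marked with *Sb*, so that this chromosome cannot be told apart from the absence of the knockdown. All males were 0 to 2 days old and came from stocks kept at 30 °C, and each array received its own RNA pool, from 30 animals per the labels, where the methods give a smaller number. The *bam* promoter drives Gal4 in the male germline, so the hairpin is made there and not in the somatic cells of the testis, while the RNA measured was that of the whole organ.

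piRNAs guide Piwi-clade Argonaute proteins to transposon transcripts. Their precursors are transcribed from piRNA clusters in the nucleus and are cut and loaded at the nuage, a perinuclear body of germ cells, and at the outer membrane of mitochondria. In the fly testis the pathway is known above all for silencing the repeated *Stellate* genes with piRNAs from *Su(Ste)*, and its mutants are often sterile. siRNAs are diced from long double-stranded RNA by Dcr-2, and miRNAs are cut from hairpin transcripts, first by Drosha with Pasha and then by Dcr-1 with Loqs. A transgenic hairpin such as that against *tbrd-2* works through the siRNA machinery. tBRD-2 is a testis-specific bromodomain protein of spermatocytes.

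The values are RMA values, log2 intensities per probe set after background correction and quantile normalization. *tbrd-2* itself lay between 7.82 and 8.06 on the knockdown arrays, between 10.52 and 10.73 on the *bam*-Gal4 arrays and between 10.19 and 10.39 on the undriven arrays, which is a change of -2.61 ± 0.09 (SE) and -2.34 ± 0.09 on the log2 scale. The array medians lay between 5.86 and 5.96, and Pearson's r between arrays of a genotype was 0.988 to 0.997 over the probe sets (these do not count as independent replicates). Differences were tested with limma in a model of all 9 arrays, and the Benjamini-Hochberg adjustment covered every probe set of the array. A gene is called at an adjusted p under 0.05. The study also asked for a change of at least 1 on the log2 scale, up or down, which is named here as the fold limit where it is used. Both knockdown comparisons share the knockdown arrays, so that a call against both controls is not a pair of independent results. Transcripts of other male tissues were present to an uneven degree. The mean log2 value of 15 accessory gland and ejaculatory duct transcripts ranged from 10.33 to 11.87 on the knockdown arrays, from 8.35 to 12 on the *bam*-Gal4 arrays and from 9.49 to 10.65 on the undriven arrays. That of 14 digestive enzyme transcripts of the gut was 7.13 on knockdown replicate 3 and 7.26 on undriven replicate 3, and at most 5.65 on the other arrays. Fewer cells of one type and less RNA per cell cannot be told apart in RNA of a whole organ.

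The small RNA pathway transcripts that passed the test are given beside the share of all named genes that passed. Against *bam*-Gal4, 4 of the 29 genes were higher in the knockdown, where 14% of all named genes were higher, and 1 was lower, where 10.1% of all named genes were lower. Against the undriven control 5 genes were higher, beside 13.2% of all named genes, and 2 were lower, beside 11.2%. In both comparisons and in the same direction, 3 genes were higher (*cuff*, *vls* and *squ*; 10.3% of the 29, against 9.69% of all named genes) and 1 was lower (*tej*; 3.45% of the 29, against 7.73%). The shares called higher against *bam*-Gal4 and against both controls were thus near those of the array as a whole. None of the 29 reached the fold limit against *bam*-Gal4, undriven or both, which 1.60%, 1.58% and 1.03% of all named genes did. At an unadjusted limma p under 0.05, 7 of the 29 differed from *bam*-Gal4 and 11 from undriven. Of all 11982 named genes, 4504 and 4596 did. The 5 calls against *bam*-Gal4 became 3 without knockdown replicate 1, knockdown replicate 3 or *bam*-Gal4 replicate 3. The 7 calls against undriven became 4 without knockdown replicate 1 or undriven replicate 1, and 3 without knockdown replicate 3 or undriven replicate 2. The shares of all named genes called in these smaller fits are not given here.

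The size of the differences was small throughout. The log2-fold changes of the 29 genes ran from -0.33 to 0.51 against *bam*-Gal4 and from -0.34 to 0.60 against undriven. Their median was 0.07 and 0.03, beside 0.01 and 0.00 for all named genes. The median size of the change, regardless of sign, was 0.12 and 0.15, beside 0.16 and 0.17 for all named genes. Every one of the 29 had 95% intervals within a log2-fold change of 1 in both comparisons, the bound farthest from 0 being 0.75, and 10992 of all 11982 named genes met the same condition. Both log2-fold changes were above 0 for 14 genes and below 0 for 10, and 5 had changes of opposite sign or of 0.

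**Figure D1:**
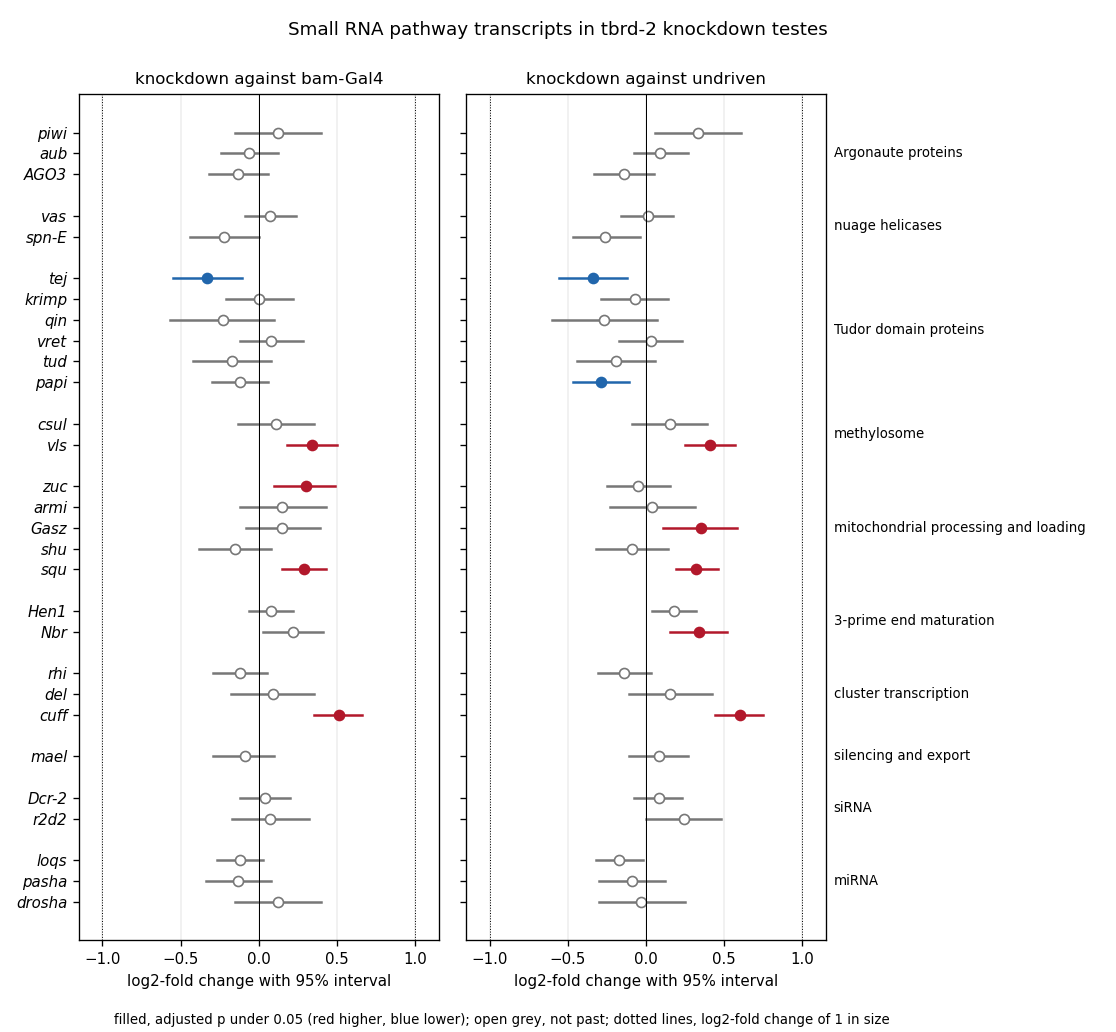
Log2-fold change (x axis) of each of the 29 measured small RNA pathway genes (y axis, grouped by role) in the knockdown against *bam*-Gal4 (left) and against undriven (right), with 95% intervals from limma. Filled points passed an adjusted p of 0.05, and all intervals lie inside the dotted lines at a log2-fold change of 1 in size, with *cuff* farthest to the right at 0.51 and 0.60.

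The cluster transcription genes held the member with the largest change. Rhi, Del and Cuff form the complex that lets piRNA clusters be transcribed from both strands in germ cells. *cuff* had log2 values of 7.97, 8.02 and 8.04 in the knockdown, 7.60, 7.38 and 7.53 in *bam*-Gal4 and 7.44, 7.38 and 7.42 in undriven testes. All 3 knockdown arrays lay above all 6 control arrays. The log2-fold change was 0.51 ± 0.07 (SE; 1.42-fold; adjusted p = 0.00101) against *bam*-Gal4 and 0.60 ± 0.07 (1.51-fold; adjusted p = 0.000433) against undriven. Neither of the other members of the complex passed, with -0.12 and -0.14 for *rhi*, 0.09 and 0.15 for *del*, and adjusted p of 0.24 or more. *rhi* was dim, with no value above 5.75. *cuff* overlaps *ERp60* in the RefSeq gene table, and the probe set of *ERp60* differed by 0.13 (adjusted p = 0.188) and 0.18 (adjusted p = 0.0852). The knockdown arrays of *ERp60* (12.21 to 12.3) also lay above all controls (12.02 to 12.17).

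In the methylosome, Csul (the arginine methyltransferase) and its partner Vls modify Piwi-clade proteins so that Tudor proteins can bind them. *vls* had log2 values of 8.42, 8.49 and 8.35 in the knockdown, 8.15, 8.01 and 8.09 in *bam*-Gal4 and 7.91, 8.08 and 8.04 in undriven testes. The knockdown arrays again lay above all controls. *vls* rose by 0.34 ± 0.07 (SE; adjusted p = 0.0104) against *bam*-Gal4 and by 0.41 ± 0.07 (adjusted p = 0.00386) against undriven. *csul* had 0.11 and 0.15 (adjusted p = 0.522 and 0.382), with 95% intervals from -0.13 to 0.35 and from -0.09 to 0.39. The gene that overlaps *vls*, *lok*, had -0.14 and -0.09 (adjusted p = 0.469 and 0.645).

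Among the 5 genes of mitochondrial processing and loading, *squ* was called against both controls. Squ is a nuage protein that binds Aub. Its transcript had log2 values of 10.49, 10.56 and 10.48 in the knockdown, 10.24, 10.18 and 10.24 in *bam*-Gal4 and 10.13, 10.17 and 10.26 in undriven testes. The knockdown arrays were above the controls, by more than the spread within any genotype. *squ* rose by 0.29 ± 0.06 (SE; adjusted p = 0.00929) and 0.32 ± 0.06 (adjusted p = 0.00542). It lies within *grp*, whose 3 probe sets ranged from -0.20 to 0.21 against *bam*-Gal4 and from -0.18 to 0.07 against undriven, with adjusted p of 0.118 or more.

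*zuc* and *Gasz*, of the same group, passed the test against 1 control each. *zuc* encodes the endonuclease that cuts piRNA precursors at mitochondria, and its transcript was higher than in *bam*-Gal4 by 0.30 ± 0.09 (adjusted p = 0.0444) and differed from undriven by -0.05 (adjusted p = 0.734). The *bam*-Gal4 arrays were the low ones here, at 5.85 to 5.89, with 6.12 to 6.25 in the knockdown and 6.10 to 6.42 in undriven testes. These *bam*-Gal4 values were about as low as the array medians (5.86 to 5.96). The controls themselves differed by -0.35 (*bam*-Gal4 against undriven; adjusted p = 0.102). *Gasz*, a mitochondrial scaffold for the helicase Armi, differed by 0.15 (adjusted p = 0.355) from *bam*-Gal4 and was higher than in undriven by 0.35 ± 0.10 (adjusted p = 0.044), and the controls differed by 0.19 (adjusted p = 0.554). *zuc* lost its call when any 1 of knockdown replicate 1, 2 or 3, *bam*-Gal4 replicate 1, 2 or 3 or undriven replicate 1 was left out (adjusted p from 0.0538 to 0.133). *Gasz* lost its call without any 1 of the 3 knockdown arrays, the 3 undriven arrays or *bam*-Gal4 replicate 3 (adjusted p from 0.05 to 0.142). *armi* had 0.15 and 0.04 and *shu*, a co-chaperone of loading, -0.15 and -0.09, none past the test.

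*tej* was the only member called lower than both controls. Tej is a Tudor domain protein that works with Vas at the nuage. Its log2 values were 5.93, 6.18 and 6.06 in the knockdown, 6.43, 6.28 and 6.45 in *bam*-Gal4 and 6.23, 6.43 and 6.53 in undriven testes. The groups did not overlap, but knockdown replicate 2 came within 0.05 of the lowest control. The probe set was not bright, with values at or little above the array medians of 5.86 to 5.96. *tej* fell by 0.33 ± 0.10 (SE; adjusted p = 0.0434) against *bam*-Gal4 and by 0.34 ± 0.10 (adjusted p = 0.0382) against undriven. The call against both controls was lost when knockdown replicate 1 or 3, *bam*-Gal4 replicate 1 or 3, or undriven replicate 2 or 3 was left out. Over these the larger of its adjusted p values in a fit lay between 0.0948 and 0.139.

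The other Tudor proteins were measured at both signs. *papi*, which encodes a Tudor protein of the mitochondrial surface, was lower than in undriven by 0.29 on the log2 scale (-0.29 ± 0.08; adjusted p = 0.0327) and differed from *bam*-Gal4 by -0.12 (adjusted p = 0.369), and the controls differed by -0.18 (adjusted p = 0.462). Its call was lost without knockdown replicate 1 or 3 or undriven replicate 1 or 2 (adjusted p from 0.0744 to 0.107). *krimp*, *qin*, *vret* and *tud* lay between -0.23 and 0.08 against *bam*-Gal4 and between -0.27 and 0.03 against undriven, and none passed. *qin* has a second probe set, dimmer and at 0.04 and 0.02, where the brighter one had -0.23 and -0.27. Of the nuage helicases, *spn-E* had -0.22 and -0.26 (adjusted p = 0.155 and 0.0976), and *vas* 0.07 and 0.01 (adjusted p = 0.547 and 0.959). The *vas* probe set was dim, between 5.03 and 5.29 on all 9 arrays and below every array's median, and these values do not show whether *vas*, a defining gene of germ cells, was detected by it. A probe set that *vas* shares with another symbol was not used.

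**Figure D2:**
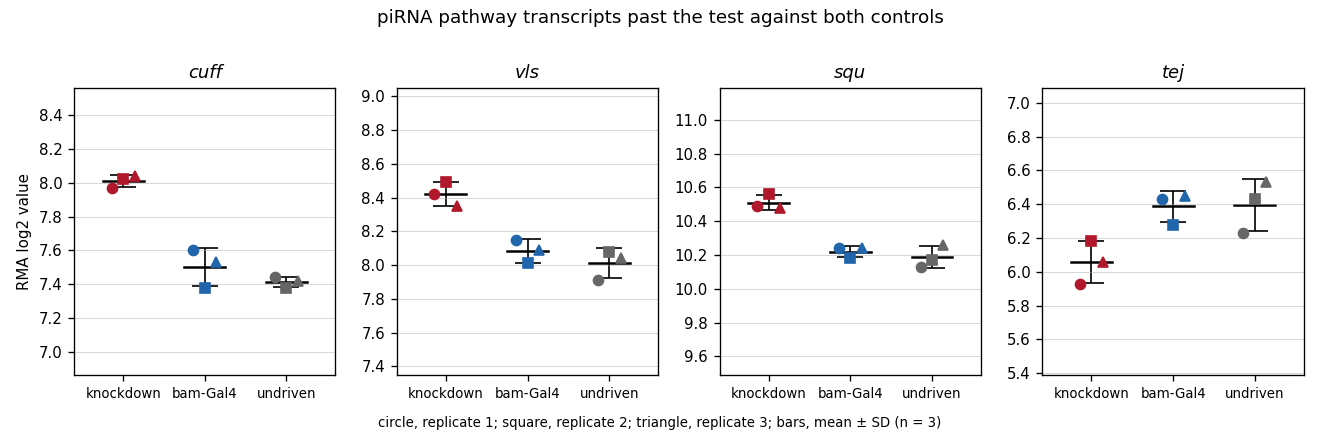
RMA log2 values (y axis) of *cuff*, *vls*, *squ* and *tej* on each array by genotype, with the mean and SD of 3 arrays. The panels span the same number of log2 units. The 3 knockdown arrays lie above the 6 control arrays for *cuff*, *vls* and *squ* and below them for *tej*, where knockdown replicate 2 (6.18) is next to undriven replicate 1 (6.23).

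At the 3′ ends of piRNAs, the exonuclease Nbr trims and the methyltransferase Hen1 protects the ends, and both also act on other small RNAs. *Nbr* was higher than in undriven by 0.34 ± 0.08 (adjusted p = 0.0214) and had 0.22 against *bam*-Gal4 (adjusted p = 0.104), with a difference of 0.12 between the controls (adjusted p = 0.695). Without knockdown replicate 2 or 3, or undriven replicate 1 or 2, its adjusted p was 0.0508 to 0.0718. *Hen1* had values of 9.52, 9.59 and 9.52 in the knockdown, 9.48, 9.42 and 9.5 in *bam*-Gal4 and 9.28, 9.41 and 9.40 in undriven testes. Its knockdown arrays were above all controls, by as little as 0.02, and neither comparison passed (0.08, adjusted p = 0.448, and 0.18, adjusted p = 0.0731). Over all 29 genes, the knockdown arrays were above all 6 controls for 4 genes (*cuff*, *vls*, *squ* and *Hen1*), beside 16.2% of all named genes, and below them for 2 (*tej* and *loqs*), beside 13.0%. *mael*, which acts in silencing and in precursor traffic, had -0.09 and 0.08 (adjusted p = 0.514 and 0.565).

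The transcripts of the Argonaute proteins themselves were not called in either comparison. Piwi silences transcription in the nuclei of germline and somatic gonad cells, while Aub and AGO3 cut transposon and precursor transcripts in turn at the nuage. *piwi* had log2 values of 6.23, 6.43 and 6.15 in the knockdown, 6.43, 5.94 and 6.07 in *bam*-Gal4 and 5.92, 5.99 and 5.9 in undriven testes. The knockdown and *bam*-Gal4 arrays overlapped, and all knockdown arrays were above the undriven ones. These undriven values were near the array medians (5.86 to 5.96). The change was 0.12 ± 0.12 (SE; adjusted p = 0.549) against *bam*-Gal4 and 0.33 ± 0.12 (adjusted p = 0.0938) against undriven. *piwi* rose past the test against undriven when *bam*-Gal4 replicate 1 was left out (adjusted p = 0.0266) or when only the 6 arrays of the comparison were fitted (adjusted p = 0.0403).

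*aub* had log2 values of 8.13, 8.30 and 8.15 in the knockdown, 8.30, 8.15 and 8.31 in *bam*-Gal4 and 8, 8.12 and 8.18 in undriven testes. These genotypes overlapped, with changes of -0.06 ± 0.08 (adjusted p = 0.654) and 0.09 ± 0.08 (adjusted p = 0.453). *AGO3* had 8.39, 8.48 and 8.44 in the knockdown, 8.65, 8.51 and 8.53 in *bam*-Gal4 and 8.73, 8.42 and 8.58 in undriven testes. The changes of *AGO3* were -0.13 ± 0.08 (adjusted p = 0.352) and -0.14 ± 0.08 (adjusted p = 0.291), with intervals from -0.32 to 0.06 and from -0.33 to 0.05.

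**Figure D3:**
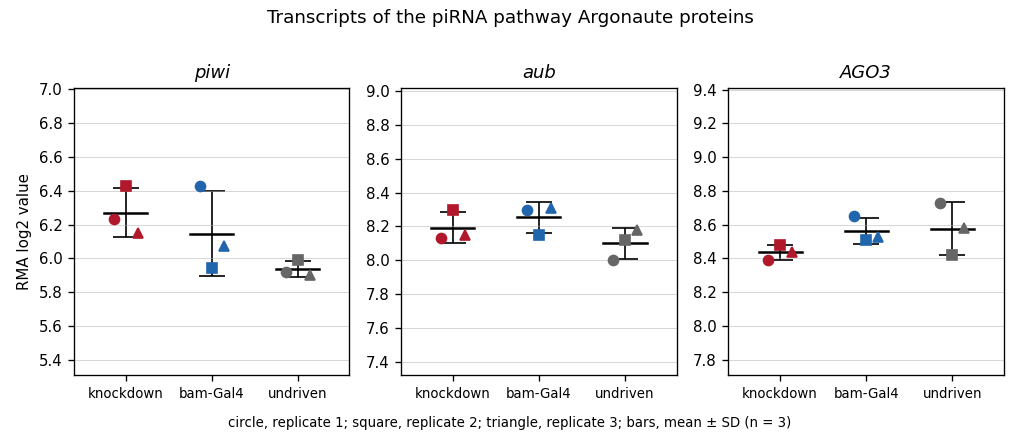
RMA log2 values (y axis) of *piwi*, *aub* and *AGO3* on each array by genotype, with the mean and SD of 3 arrays. The genotypes overlap for *aub* and *AGO3*, and for *piwi* the knockdown arrays (6.15 to 6.43) overlap the *bam*-Gal4 arrays (5.94 to 6.43) but not the undriven arrays (5.9 to 5.99).

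Neither the siRNA nor the miRNA genes passed the test. *Dcr-2*, the dicer of siRNAs, lay between 7.86 and 8.11 on all 9 arrays, with changes of 0.04 ± 0.07 (adjusted p = 0.742) and 0.08 ± 0.07 (adjusted p = 0.488). Its partner *r2d2* had 0.07 ± 0.11 (adjusted p = 0.691) and 0.24 ± 0.11 (adjusted p = 0.158). The 95% intervals of both genes stayed within 0.48 of 0. The undriven control carries the hairpin without the driver and the *bam*-Gal4 control the driver without the hairpin, and between these *Dcr-2* differed by 0.04 (adjusted p = 0.906) and *r2d2* by 0.17 (adjusted p = 0.654).

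*loqs*, whose protein isoforms serve both dicers and which is counted here as a miRNA gene, had 10.89 to 10.98 in the knockdown, 11 to 11.17 in *bam*-Gal4 and 11.08 to 11.15 in undriven testes. Its knockdown arrays were below all controls by 0.02 or more, with changes of -0.12 (adjusted p = 0.248) and -0.17 (adjusted p = 0.112). *pasha* and *drosha*, which encode the subunits of the nuclear processor, had -0.13 and 0.12 against *bam*-Gal4 and -0.09 and -0.03 against undriven, all with adjusted p of 0.4 or more. The intervals of the 3 miRNA genes stayed within 0.40 of 0. *drosha* was dim, at 5.14 to 5.67.

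No small RNA pathway gene was called between the controls. In *bam*-Gal4 against undriven, 0 passed at an adjusted p of 0.05, where 2.45% of all named genes did. At an unadjusted limma p under 0.05 there was 1, beside 1598 of all 11982 named genes. With array weights in the limma fit, 1 of the 29 passed, and the share of all named genes that passed in that fit is not given here. The log2-fold changes between the controls ran from -0.35 (*zuc*) to 0.21 (*piwi*), with a median size of 0.07 beside 0.09 for all named genes.

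Within the knockdown and *bam*-Gal4 genotypes, most of the 29 genes were high or low on the same array. On knockdown replicate 2, 23 of the 29 genes had their highest value of the 3 knockdown arrays (79.3%, beside 41.9% of all named genes), and on *bam*-Gal4 replicate 1 it was 25 (86.2%, beside 61.4%). On *bam*-Gal4 replicate 2, 23 genes had their lowest value (79.3%, beside 53.2%), and on knockdown replicate 1 it was 17 (58.6%, beside 28.5%). The median deviation from the genotype mean was 0.10, 0.11, -0.10 and -0.04 on these arrays. In the undriven genotype no array stood out in this way. Undriven replicate 2 was highest for 14 of the 29 (48.3%, beside 49.1% of all named genes), and the median deviations of replicates 1 to 3 were -0.02, 0.03 and 0.00. The median size of the knockdown differences, given above, was 0.12 and 0.15.

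Knockdown replicate 2 and *bam*-Gal4 replicate 1, the arrays with high values, had the lowest accessory gland and ejaculatory duct signal of their genotype. Knockdown replicate 2 was lowest for 15 of the 15 markers and *bam*-Gal4 replicate 1 for 14, while *bam*-Gal4 replicate 2 was highest for 14. Other arrays did not follow this order. Knockdown replicate 3 was also highest for 14 markers, but lowest for only 10 of the 29 genes (34.5%, beside 46.6% of all named genes). Knockdown replicate 1, lowest for 17 genes, had a median marker deviation of -0.06. Undriven replicate 2 was lowest for 13 markers, with no excess of high values among the 29 genes. Knockdown replicate 2 and *bam*-Gal4 replicate 1 were also the highest of their genotype for 14 of 15 spermatocyte markers each. Between genotypes the accessory gland and ejaculatory duct list lay above 0 in the knockdown for 15 of 15 transcripts, with medians of 0.91 against *bam*-Gal4 and 1.06 against undriven, and 0 of 15 were called against both controls. Without the 3 arrays highest in accessory gland or gut transcripts (knockdown replicate 3, *bam*-Gal4 replicate 2 and undriven replicate 3), 1 of the 29 genes was called against both controls (*cuff*; adjusted p = 0.0216 and 0.00807) in place of 4. In that fit *squ* had 0.25 and 0.30 and *vls* 0.28 and 0.36, with adjusted p of 0.0739 and 0.0715 against *bam*-Gal4, and *tej* had an adjusted p of 0.0909 and 0.19. That fit has 2 arrays per genotype in place of 3, and the share of all named genes called in it is not given here. Fewer arrays and less RNA of other tissues therefore cannot be told apart.

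**Figure D4:**
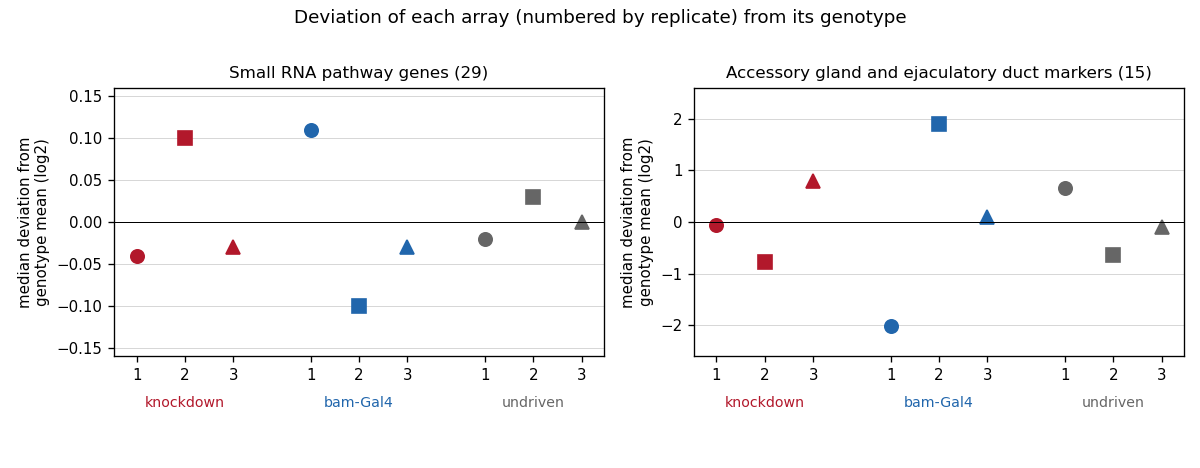
Median deviation of each array from the mean of its genotype (y axis, log2 units, with different scales) over the 29 small RNA pathway genes (left) and over 15 accessory gland and ejaculatory duct markers (right), by genotype and replicate number (x axis). Knockdown replicate 2 and *bam*-Gal4 replicate 1 are high on the left (0.10 and 0.11) and the lowest of their genotype on the right, and *bam*-Gal4 replicate 2 is the reverse. Knockdown replicate 3, the highest of its genotype on the right, is at -0.03 on the left, where knockdown replicate 1 is at -0.04.

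Markers of testis cell types were counted in the same way, beside the 9.69% of all named genes called higher and the 7.73% called lower than both controls. Of 15 spermatocyte markers, 2 were higher (*sa*, by 0.61 and 0.97, and *mia*, by 1.89 and 1.48) and 1 was lower (*bb8*; -0.30 and -0.35). *can* was called lower than *bam*-Gal4 alone (-0.37, adjusted p = 0.0127; -0.14, adjusted p = 0.265 against undriven). The mean log2 value of the list was 9.17 to 9.36 in the knockdown, 8.96 to 9.21 in *bam*-Gal4 and 9 to 9.08 in undriven testes. Large changes of single genes weigh on such means, and the median change of the list was 0.07 and 0.13. Of 12 markers of germline stem cells and spermatogonia, 0 were called higher and 1 lower (*Rbp9*; -1.09 and -1.21) than both controls. *zpg* was called higher than undriven alone (0.31, adjusted p = 0.03; 0.24, adjusted p = 0.0742 against *bam*-Gal4). The list means were 6.43 to 6.53 in the knockdown, 6.49 to 6.62 in *bam*-Gal4 and 6.58 to 6.62 in undriven testes, and the median change was 0.03 and -0.04. Of 11 hub and cyst cell markers 1 was lower (*CadN*), of 6 muscle sheath markers 1 was lower (*Act87E*), and 0 of 14 gut and 0 of 8 fat body markers were called. Many of these probe sets were dim. A mean under 6 was found for 4 of the 12 stem cell and spermatogonia markers and 5 of the 11 hub and cyst cell markers. The same held for 8 of the 14 gut and 5 of the 8 fat body markers, so that a lack of calls there says little. The part of these cell types in the differences of the small RNA pathway genes was not tested.

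Among other genes of the same pathways, *vig* and *Trf2* had larger changes than any of the 29 in both comparisons. Of 51 other pathway genes with a probe set, 26 of the piRNA and 25 of the siRNA and miRNA pathways, 7 were higher than in both controls (13.7%) and 2 were lower (3.92%), beside the 9.69% and 7.73% of all named genes. The knockdown arrays lay above all control arrays for 12 of the 51 (23.5%, beside 16.2% of all named genes). They lay below them for 6 (11.8%, beside 13.0%). The median size of the change over the 51 was 0.16 and 0.17, the same as for all named genes. *vig*, a subunit of the siRNA effector complex RISC, had log2 values of 10, 9.89 and 9.98 in the knockdown, 11.01, 10.90 and 10.94 in *bam*-Gal4 and 10.99, 11.13 and 10.91 in undriven testes. The knockdown arrays were far below the controls, by 0.90 at the nearest. *vig* fell by 0.99 ± 0.07 (SE; 1.99-fold; adjusted p = 4.35e-05) against *bam*-Gal4 and by 1.05 ± 0.07 (2.08-fold; adjusted p = 3.45e-05) against undriven. It was the 1 gene of the 51 past the fold limit in the fit of all arrays, against undriven, and it lay near that limit in both comparisons. Its change was -1.04 against *bam*-Gal4 with the arrays centred on their medians, and -0.99 against undriven without undriven replicate 2. The *vig* gene lies within *vas* in the RefSeq gene table, and the *vas* probe set differed by 0.07 and 0.01 as given above.

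*Tailor*, which encodes a uridylyltransferase that marks hairpins of splicing-derived miRNAs, was the second lower gene. It had log2 values of 9.52, 9.5 and 9.60 in the knockdown, 10.24, 10.07 and 10.08 in *bam*-Gal4 and 10.20, 10.03 and 10.03 in undriven testes. The groups did not overlap, and *Tailor* fell by 0.59 ± 0.08 (adjusted p = 0.000718) and by 0.55 ± 0.08 (adjusted p = 0.00113).

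The highest change among the 51 was that of *Trf2*, a TBP-related factor that transcribes piRNA clusters together with the Rhi complex and has many other target genes. Its log2 values were 9.57, 9.95 and 9.82 in the knockdown, 9.14, 8.87 and 8.69 in *bam*-Gal4 and 9.05, 9.01 and 9.05 in undriven testes. All knockdown arrays lay above the controls. *Trf2* rose by 0.88 ± 0.12 (1.84-fold; adjusted p = 0.00127) and 0.74 ± 0.12 (1.67-fold; adjusted p = 0.0031), and it reached the fold limit against *bam*-Gal4 with array weights (1.01; adjusted p = 0.000199). *moon*, the factor that recruits Trf2 to clusters, had 0.16 against *bam*-Gal4 (adjusted p = 0.479) and was lower than in undriven by 0.56 on the log2 scale (-0.56; adjusted p = 0.0195). It was also the 1 gene of the 51 that differed between the controls, by -0.72 (adjusted p = 0.0279).

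*Cbp20*, the small cap-binding subunit, had 11.25, 11.09 and 11.05 in the knockdown, 10.69, 10.50 and 10.58 in *bam*-Gal4 and 10.52, 10.75 and 10.66 in undriven testes, a rise of 0.54 ± 0.09 (adjusted p = 0.00241) and 0.49 ± 0.09 (adjusted p = 0.00415). *Ars2*, which binds that complex and takes part in miRNA and siRNA biogenesis, rose by 0.41 ± 0.10 (adjusted p = 0.0211) and 0.35 ± 0.10 (adjusted p = 0.0394). The large subunit *Cbp80* had -0.25 and -0.22 (adjusted p = 0.157 and 0.216). Of the deadenylases that miRNA effectors recruit, *PAN2* rose by 0.49 ± 0.09 (adjusted p = 0.005) and 0.41 ± 0.09 (adjusted p = 0.0125), and *twin* by 0.33 ± 0.08 (adjusted p = 0.0175) and 0.26 ± 0.08 (adjusted p = 0.0452). *PAN3*, the partner of *PAN2*, had 0.15 and 0.17 (adjusted p = 0.31 and 0.249). *Pop2* was lower than in *bam*-Gal4 (-0.57; adjusted p = 0.00264) and had -0.24 against undriven (adjusted p = 0.104).

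*Veneno*, which encodes a Tudor protein whose part in the piRNA pathway is known from mosquitoes, rose by 0.60 ± 0.10 (adjusted p = 0.00353) and 0.37 ± 0.10 (adjusted p = 0.0351). The seventh of the higher genes was *thoc7* of the THO export complex, at 0.23 in both comparisons. In the fits that left out 1 array, the calls of *vig*, *Tailor*, *Trf2*, *Cbp20* and *PAN2* against both controls stood each time. *Veneno* was lost without any 1 of the knockdown or undriven arrays (adjusted p from 0.0636 to 0.102). *Ars2* was lost without knockdown replicate 2 or 3, *bam*-Gal4 replicate 2 or 3, or undriven replicate 1 or 3 (adjusted p from 0.0551 to 0.117), and *twin* without these or knockdown replicate 1 (adjusted p from 0.0622 to 0.128). *thoc7* was lost without knockdown replicate 1 or 3, any *bam*-Gal4 array, or undriven replicate 1 or 3 (adjusted p from 0.06 to 0.124). Of the 51 genes, 9 were called against both controls in the fit of all arrays, and 5 without knockdown replicate 3. Without the 3 arrays named above, 4 of the 51 genes were called against both controls in place of 9. Neither of these smaller fits has the share of all named genes beside it.

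**Figure D5:**
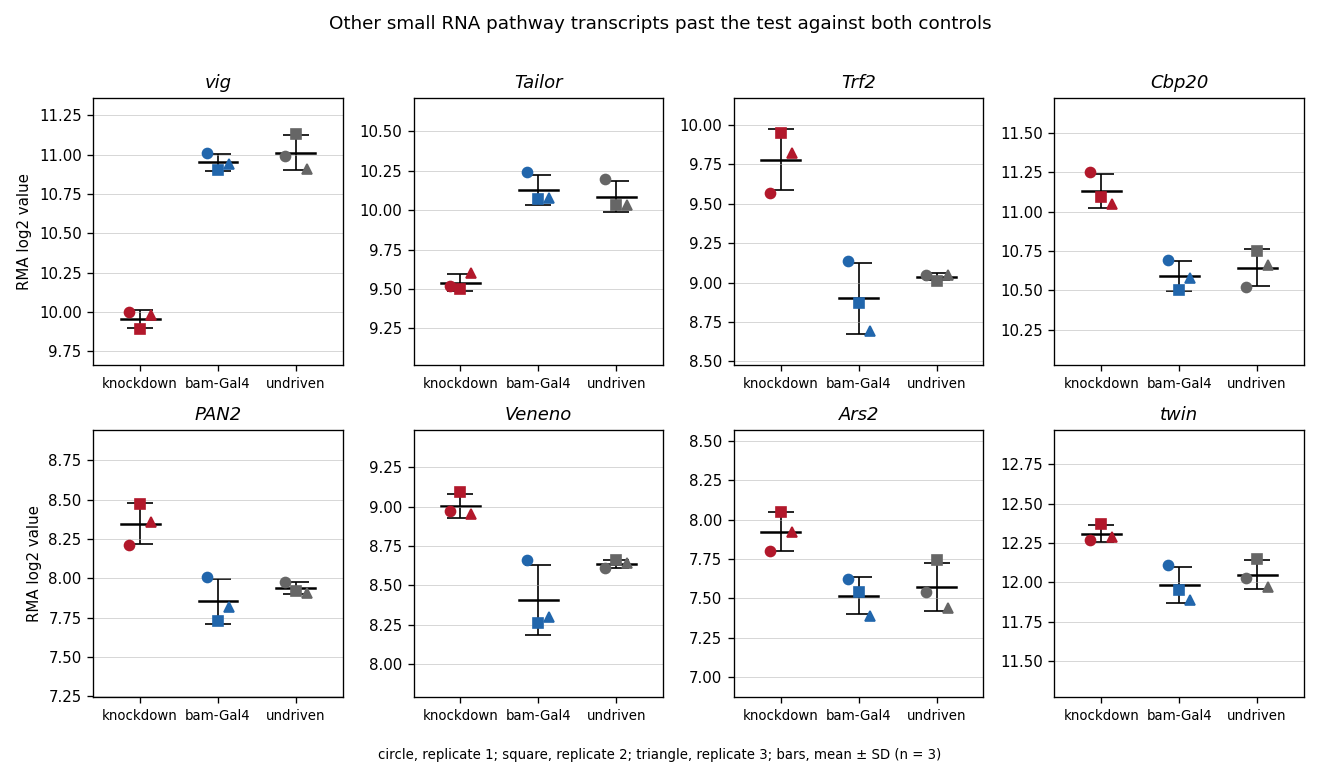
RMA log2 values (y axis) of 8 other small RNA pathway genes called against both controls, on each array by genotype, with the mean and SD of 3 arrays. The panels span the same number of log2 units. The knockdown arrays lie below all controls for *vig* (9.89 to 10) and *Tailor* (9.5 to 9.60) and above them for the other 6 genes. Over all 51 such genes they lie above for 23.5% and below for 11.8%, beside 16.2% and 13.0% of all named genes.

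Of a list of the *Stellate* and *Su(Ste)* genes and their relatives, 5 genes had a probe set, all of them relatives (*betaNACtes1*, *betaNACtes2*, *betaNACtes4*, *CkIIbeta2* and *Ssl*). None passed the limma test in either comparison, with changes from -0.14 to 0.16 and from -0.21 to 0.18. At an unadjusted p under 0.05, 0 of 5 differed from *bam*-Gal4 and 1 of 5 from undriven. Of all 11982 named genes, 4504 and 4596 did. Near-identical copies can share probes in these families. The *Stellate* genes were not analysed here, so the values of their relatives are no measure of piRNA silencing.

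By chromosome arm, the 4 genes called against both controls lie on the second chromosome, *vls* and *squ* on 2L and *cuff* and *tej* on 2R, where 22 of the 29 genes lie. The 3 genes on 3L and the 4 on 3R had 0 calls in either comparison. These few genes were not set beside all named genes of the same arms, and a difference between chromosomes was not tested.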

How the data were processed

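Whole testes of 3 genotypes were measured on 9 arrays. The authors deposited 1 log2 value per probe set and array, with 2 decimals, made from the scanned arrays with affy and RMA. Where these arrays are set beside published data sets, the methods apply RMA to all of them jointly. The tool versions, and which RMA run gave the deposited log2 values, are not stated in the sources used here. Genotypes and replicate numbers came from the sample labels.

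From these values, limma 3.58.1 (lmFit and eBayes, run in R 4.3.3) gave log2-fold changes, SE, 95% intervals and p-values (mean per genotype, no covariate, 6 residual degrees of freedom or 9.23 with those borrowed across probe sets). No probe set was filtered out. Depth does not apply, and the number of arrays limits the precision. The fit was tested on simulated data.

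Of 18952 probe sets, 13647 carry 1 gene symbol, 402 several and 4903 are not named. Symbols were updated through the RefSeq gene table of Release 6 plus ISO1 MT, which held 13544 of the single-symbol probe sets by gene ID; *vas* was matched by symbol. Percentages of all named genes count 1 probe set, the brightest, for each of 11982 genes.

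The members, the other pathway genes and the marker lists were chosen with earlier results of these data known. Values per array were given for members called against both controls and for the Argonaute genes, and for up to 8 other pathway genes called against both controls with the largest smaller change. *Hen1*, *moon*, *Cbp80*, *PAN3*, *Pop2* and *thoc7* were named after their values were seen. Alternatives were the replicate number as a block, the 6 arrays of a comparison, repeated quantile normalization, median centring, leaving out probe sets with a mean under 6, an intensity trend with robust estimation, array weights, the mean of a gene's probe sets and leaving out each array. Leaving out 3 arrays was chosen after seeing the data. Figures were made with Python 3.11.15 and matplotlib 3.10.9.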

Additional observations from a re-analysis of the deposited data

How the results depend on the processing

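The main counts were 5 of 29 small RNA pathway genes called against *bam*-Gal4, 7 against undriven, 4 against both controls, 0 between the controls and 0 with the fold limit, and 9 of 51 other pathway genes against both. With the replicate number as a block, 3 were called against *bam*-Gal4 and 3 against undriven, and *cuff*, *squ* and *vls* kept their calls against both. The main fit did not treat the numbers as pairing the arrays. Deviations of same-numbered arrays correlated between -0.58 and 0.33, which does not show whether such arrays share a preparation. Array weights gave 1 call between the controls. Leaving out 1 array at a time gave 3 to 5 calls against *bam*-Gal4, 3 to 8 against undriven, 3 to 4 against both, 0 between the controls, 0 with the fold limit and 5 to 9 among the other pathway genes. Leaving out the 3 arrays highest in accessory gland or gut transcripts gave 1 call against *bam*-Gal4, 3 against undriven and 1 against both, and 4 among the other pathway genes, with 2 arrays per genotype. The shares of all named genes called under the alternatives are not given here. *cuff* was called against both controls under every alternative run, *squ* and *vls* under all but the last. *tej* was lost under the block (adjusted p = 0.0574 and 0.0519), with the 6 arrays of a comparison (0.0641 against undriven), without 6 of the 9 single arrays and without the 3 arrays. *spn-E* was added by repeated quantile normalization and *Nbr* by array weights. The fold changes of the 20 genes followed through the alternatives gave 360 values under the alternatives other than leaving out 1 array, the fit without 3 arrays included, of which 314 kept their side of the threshold and their called direction, 44 fell short and 2 newly passed. In the fits without 1 array, 290 of 360 were kept, 69 fell short and 1 newly passed. No called change turned its direction.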
